A study of Mus musculus with 6 samples.

Results

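The genes described here are 34 mouse genes of the NRF2 pathway and of the antioxidant enzymes. Their roles lie in glutathione and thioredoxin chemistry, NADPH supply, peroxide and superoxide removal, and metal binding. They were chosen by name for those roles, with earlier results of the data known. Of the 34 genes, 32 had at least 1 probe set in the deposited table, out of 19324 gene symbols, with 70 of its 45037 probe sets other than controls. No signal of Prdx6 or G6pdx was analysed here, and G6pdx enters only the promoter search. The 5 probe sets of Prdx1 are shared with Gm21399 and stay apart. The other 31 genes had 65 probe sets of their own. A probe set was tested if its mean over the 6 arrays reached the 40th percentile of all probe sets, which is 5.96 on the log2 scale, and 61 of the 65 did. They belong to 30 genes, and Sod3 alone had only dim probe sets.

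The RNA came from 2T3 cells, a mouse pre-osteoblast line at passages given as 8-10 in the labels, after 3 days in a rotating wall vessel (3 samples, called rotated here) or as static controls of that vessel (3 samples). Slow turning keeps the cells in near free fall within the culture medium and so models low gravity on the ground. 2T3 is an immortalised clonal line from mouse calvaria, so all 6 samples stand for 1 clone. The titles name the rotated samples only by the letter R, and for static 2 and static 3 another label speaks of simulated microgravity. The titles were followed, and every direction below rests on them. Each sample was hybridised to 1 single-colour array, so 3 arrays a group limit the precision, and since nothing says that the samples were separate cultures, p-values measure a spread that may be technical.

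NRF2, encoded by Nfe2l2, is a transcription factor that KEAP1 holds for degradation. When electrophiles or peroxides modify cysteines of KEAP1, NRF2 accumulates, pairs with small MAF proteins and binds antioxidant response elements near genes of glutathione synthesis, the thioredoxin system, NADPH production and quinone and epoxide detoxification. Superoxide dismutases, catalase and glutathione peroxidases remove the oxidants themselves, and metallothioneins bind zinc and copper under control of the metal-sensing factor MTF1. In bone, oxidants and NRF2 are known to affect both osteoblasts and osteoclasts.

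Rotated 1 had a 3' over 5' signal ratio of the actin controls of 3.21, against 1.48 to 1.57 in the other rotated samples and 1.29 to 1.37 in the static samples. On static 1 the dimmest probe sets were brighter: the 10th percentile of deposited signal was 22.1, where the others ranged from 4.5 to 7.2. All 7 osteoblast markers looked up were above the threshold for dim probe sets. Alpl, Ibsp and Pth1r had group means between 6.09 and 6.91, near that threshold. By their brightest probe sets all 7 were lower in value in the rotated samples, with Dlx5 at -1.08 ± 0.32 and Col1a1 at -0.79 ± 0.34 (log2 rotated minus static ± SE). For both, rotated 1 was the lowest array, at 8.01 for Dlx5 and 11.66 for Col1a1, and rotated 2 the next, at 9.02 and 12.67. The other Col1a1 probe set stood at -0.20 ± 0.22. The leukocyte genes Ptprc and Itgam, the endothelial genes Pecam1, Cdh5 and Tek, the muscle genes Myod1 and Myog, the epithelial genes Krt14 and Cdh1 and the adipocyte gene Adipoq lay below the threshold. Of the marker lists, 2 of 4 leukocyte, 1 of 4 endothelial, 2 of 4 epithelial, 2 of 4 muscle, 2 of 3 adipocyte and 4 of 4 cartilage genes passed the threshold, with Cd14, Fabp4, Lpl and Col2a1 well above it in both groups. Fabp4 stood at -0.59 ± 0.23 and Epcam, an epithelial gene, at -0.96 ± 0.40, each with all rotated values below all static values and an unadjusted limma p of 0.032 and 0.041 (adjusted p 0.605 for both). The osteoblast markers Dlx5, Sp7 and Col1a2 were separate in the same direction, with an unadjusted limma p of 0.0075, 0.035 and 0.049. Col1a1 overlapped and had 0.044 (adjusted p 0.593 to 0.606 for these). Of all tested genes, 7.11% were separate in that direction. The part of any of these in the antioxidant values was not tested.

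Several NRF2 target enzymes stood higher in value in the rotated samples, among them Nqo1, Gclc, Pgd, Ephx1, Srxn1 and Gstp1, by between 1.46-fold and 2.23-fold. The peroxide and superoxide enzymes and the metallothioneins did not share that direction, and the secreted peroxidase gene Gpx3 stood 2.51-fold lower. In the glutathione, NADPH and detoxification groups, Me1, Akr1b8 and Gstm1 stood at only 0.05, 0.07 and 0.10 on the log2 scale. Osgin1 and Slc7a11 stood at -0.01 and -0.24. The Pgd probe sets that differed may match other transcripts. No member passed the test: adjusted over all 27022 tested probe sets, the limma p lay between 0.562 and 0.996 for the 30 genes, and 0% of all tested probe sets were called. The values below are therefore measured differences, not calls. They are relative to the RNA on each array, so fewer cells with a transcript and less of it per cell cannot be told apart.

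At the level of genes, each represented by its brightest probe set, 24 of the 30 tested members were higher in value in the rotated samples and 6 lower. The median log2 difference was 0.31 for the members and 0.03 for all 12554 tested genes, of which 53.3% were higher in value. An unadjusted p under 0.05 with a higher value was found for 7 member genes, or 23.3%, against 4.49% of all tested genes. With a lower value it was found for 1 member gene, or 3.33%, against 3.74% of all genes. The 3 rotated values lay entirely above the 3 static values in 9 member genes, against 8.3% of all genes, and entirely below them in 0 member genes, against 7.11% of all genes. The choice of probe set weighed on this split. Over all 61 member probe sets, 39 were higher and 22 lower in value with a median of 0.12, and the median of the genes was 0.19 when the probe sets of each were averaged. Of 19 member genes with more than 1 tested probe set, 15 had probe sets of both signs; Gclc, Gclm, Txn1 and Tkt were the other 4. Of the 61 probe sets, 10 had an unadjusted p under 0.05 with a higher value and 2 with a lower value, where the shares of all tested probe sets were 4.34% and 3.9%. The rotated values were all above the static ones in 12 member probe sets and all below in 0, against 7.83% and 7.27% of all probe sets. The members were chosen with earlier results of these data known, so these shares describe the list and do not test it.

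With the replicate number as a block, the count of member genes with an unadjusted p under 0.05 was 12 higher and 1 lower, against 8.22% and 6.75% of all genes, and 0 members passed after adjustment. The additional genes were Nfe2l2, Gsr, Gsta4, Taldo1 and Cat. Without rotated 1, whose actin ratio was 3.21, 7 member genes were again higher at that level, against 2.12% of all genes; Abcc1 took the place of Tkt, and Gpx3 was no longer below 0.05. Without rotated 2 the higher count was 4 (Gclc, Gstp1, Pgd and Ephx1), against 3.68% of all genes.

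**Figure D1:**
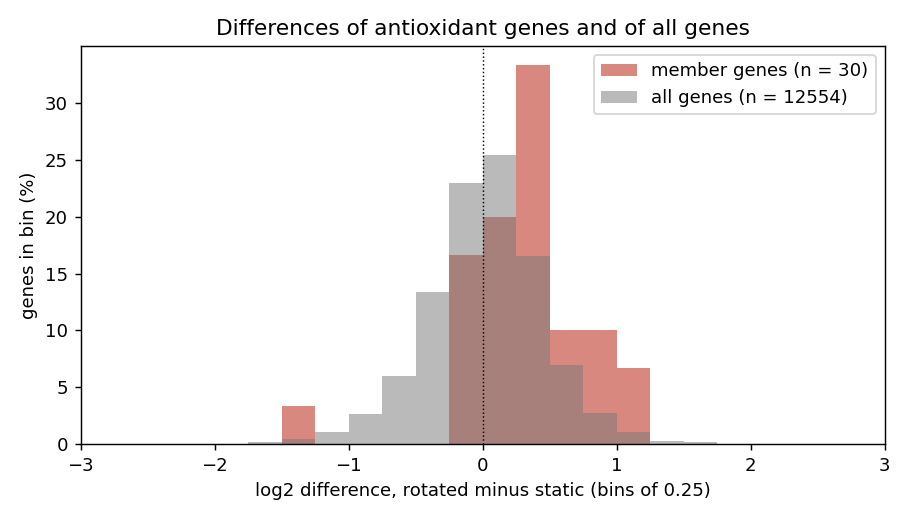
The bars give the percentage of genes in each bin of log2 difference (rotated minus static, x axis), for the 30 tested antioxidant genes and for all 12554 tested genes. The antioxidant genes lie further to the right, with a median of 0.31 against 0.03, and Gpx3 stands alone on the left at -1.33.

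The member levels can also be read per sample. The median member level, taken against the static mean of each gene, was 0.19, 0.36 and 0.36 in rotated 1, rotated 2 and rotated 3, against -0.15, 0.01 and 0.08 in static 1, static 2 and static 3. The 3 rotated samples lay above the 3 static ones. The glutathione genes had medians of 0.45 to 0.67 in the rotated samples and -0.08 to 0.11 in the static ones. Those of the peroxide and superoxide enzymes ran from -0.14 to 0.09 in the rotated and from -0.24 to 0.10 in the static samples, which overlap. The detoxification genes had a median of 0.0018 in rotated 1 and 0.58 and 0.63 in the other rotated samples.

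**Figure D2:**
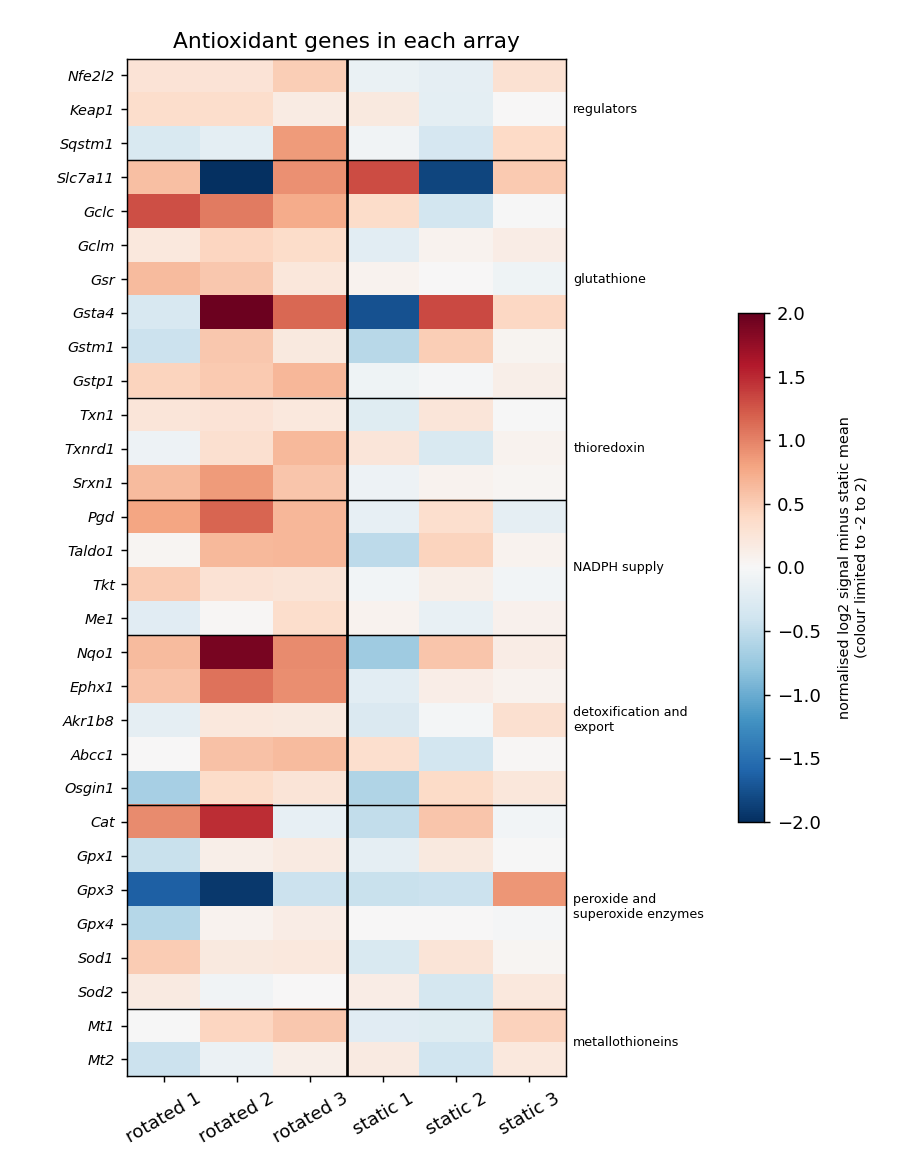
Each cell gives the normalised log2 signal of 1 gene (row) on 1 array (column) minus the mean of that gene in the 3 static samples, with genes grouped by role and the rotated samples on the left. Gclc, Gstp1, Srxn1, Pgd, Nqo1 and Ephx1 are above the static mean in all 3 rotated samples, while Slc7a11, Gsta4 and Gpx3 differ widely between samples of 1 group.

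Antioxidant response elements are the sites through which NRF2 acts, so the promoters of the members were searched for the core of that element. The RefSeq promoter table (GRCm38.p6, 250 bases before to 50 after each annotated start) held 36 promoters of 28 members. The core TGACNNNGC, on either strand, was present in 10 of these 36 promoters (27.8%), and in 12.4% of all 32851 promoters of the table. The members were chosen by name for roles in the NRF2 pathway among others, so these shares describe the list and do not test it. The 10 genes were Srxn1, Gclm, Nfe2l2, Txnrd1, Me1, Sod1 and Mt2, shown here, and Pgd, Prdx1 and G6pdx. The windows are shown because they give the letters of the element in genes with larger and smaller measured differences. Each window is 5′ to 3′ on the strand of its gene, and capitals mark the core, which reads GCNNNGTCA where the element lies on the other strand.
Srxn1: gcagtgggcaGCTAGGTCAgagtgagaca
Gclm: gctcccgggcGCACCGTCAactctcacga
Nfe2l2: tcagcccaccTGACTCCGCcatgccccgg
Txnrd1: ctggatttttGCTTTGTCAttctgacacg
Me1: gatgccgccgTGACTCAGCgcttctcgcg
Sod1: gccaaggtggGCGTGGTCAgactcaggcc
Mt2: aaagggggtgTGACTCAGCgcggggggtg

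The windows lie at chr2:152105542-152105570 (plus strand) for Srxn1, chr3:122245413-122245441 (plus) for Gclm, chr2:75704885-75704913 (minus) for Nfe2l2, chr10:82859104-82859132 (plus) for Txnrd1, chr9:86695902-86695930 (minus) for Me1, chr16:90220696-90220724 (plus) for Sod1 and chr8:94172529-94172557 (plus) for Mt2. The core began 28 bases downstream of the annotated start in Srxn1. It began 134 bases upstream in Gclm, 240 in Nfe2l2, 92 in Txnrd1, 6 in Me1, 56 in Sod1 and 79 in Mt2. In Pgd and in Me1 the core lay in 1 of 2 promoters, and in Txnrd1 in 1 of 3. Nqo1, Ephx1, Gstp1 and Tkt, whose signals were higher in value, had no match to these letters within the 300 bases. Among the matched genes, Pgd and Srxn1 stood higher in the rotated samples, at 0.87 and 0.67, whereas Me1 differed by 0.05 and Mt2 by -0.15. No promoter of Gclc, Gsr, Gsta4, Abcc1, Prdx6 or Sod3 was held, so these genes were not searched.

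By their brightest probe sets, the regulators of the pathway stood slightly higher in value, while the other probe sets of Keap1 and Sqstm1 were lower. Nfe2l2, the gene of NRF2 itself, had normalised log2 signals of 12.88, 12.87 and 13.09 in the rotated samples, against 12.47, 12.43 and 12.91 in the static samples. Static 3 lay above rotated 1 and rotated 2, so the groups overlapped. The difference was 0.34 ± 0.19 (SE, n = 3 per group), with a limma p of 0.0986 unadjusted and 0.033 with the replicate block, and an adjusted p of 0.627 and 0.310 in the same fits.

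Keap1, the adaptor that targets NRF2 for ubiquitination, had 10.20, 10.21 and 10.02 in the rotated samples, against 10.05, 9.65 and 9.85 in the static samples. The groups overlapped only through static 1, and the difference was 0.29 ± 0.21. Its other probe set pointed the opposite way (-0.66 ± 0.32), and on that one rotated 1 was the lowest of all 6 arrays at 7.33. Sqstm1, the autophagy receptor p62 that sequesters KEAP1, differed by 0.11 ± 0.32, and its rotated values ran from 12.22 to 13.37, a wider range than the static one of 12.19 to 12.92. The other probe set of Sqstm1, far dimmer with a mean of 6.50, stood at -0.12 ± 0.41.

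In the glutathione group, 6 of 7 genes were higher in value in the rotated samples, with a median of 0.46 and differences from -0.24 to 1.03. Gclc, the catalytic subunit of the enzyme that makes the first intermediate of glutathione, had normalised log2 signals of 11.38, 11.13 and 10.83 in the rotated samples, against 10.46, 9.73 and 10.08 in the static samples. The lowest rotated value lay above the highest static one. This was 2.03-fold higher (log2 difference 1.03 ± 0.25, SE; unadjusted p 0.0026, adjusted p 0.565 in limma), and the second probe set of Gclc stood at 0.90 ± 0.24, again with no overlap. In deposited signal the first probe set averaged 2249 in the rotated and 1097 in the static samples. The difference of Gclc was between 0.84 and 1.21 when each sample was left out in turn, with an unadjusted p under 0.05 in 6 of 6.

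Gclm, the modifier subunit of the same enzyme, had 10.49, 10.71 and 10.65 in the rotated samples, against 10.07, 10.34 and 10.42 in the static samples. The groups did not overlap, but the gap between rotated 1 and static 3 was small, and the difference of 0.34 ± 0.20 had an unadjusted limma p of 0.132. Its second probe set stood at 0.53 ± 0.25. Gsr, glutathione reductase, which regenerates glutathione with NADPH, had 10.25, 10.16 and 9.85 in the rotated samples, against 9.70, 9.63 and 9.54 in the static samples. All rotated values were above all static ones, with a difference of 0.46 ± 0.22. Its other probe set stood at -0.29 ± 0.35, with rotated 1 at 8.58 and the other 5 arrays between 9.48 and 9.93.

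Gstp1, a glutathione S-transferase and among the brightest members, had normalised log2 signals of 14.06, 14.14 and 14.27 in the rotated samples, against 13.53, 13.58 and 13.72 in the static samples. The replicates were tight in both groups, with SDs of 0.11 and 0.10, and the groups did not overlap. The difference was 0.55 ± 0.14 (1.46-fold; unadjusted p 0.0036, adjusted p 0.591 in limma). It lay between 0.49 and 0.61 when each sample was left out. Other transferases behaved differently: Gstm1 stood at 0.10 ± 0.32 with its 3 other probe sets between -0.12 and 0.60, and closely related mu-class genes may share its probes.

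Gsta4, which conjugates the lipid peroxidation product 4-hydroxynonenal, and Slc7a11, the cystine importer that supplies cysteine for glutathione, varied widely between samples of 1 group. Gsta4 had 6.68, 8.97 and 8.14 in the rotated samples, against 5.26, 8.32 and 7.42 in the static samples. In each group the sample numbered 1 was lowest and the sample numbered 2 highest. Within each replicate number the rotated sample was the higher one. The difference was 0.93 ± 0.78, with an unadjusted limma p of 0.265 and, with the replicate block, 0.0142 (adjusted p 0.722 and 0.273), and it was 0.06 without static 1. Slc7a11 had 8.52, 5.69 and 8.84 in the rotated samples, against 9.24, 6.09 and 8.45 in the static samples. Here the samples numbered 2 were low in both groups, and the difference of -0.24 ± 0.93 (95% interval -2.34 to 1.86) leaves changes of either sign possible at this precision. The other probe set of Slc7a11 stood at 0.02 ± 0.79.

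**Figure D3:**
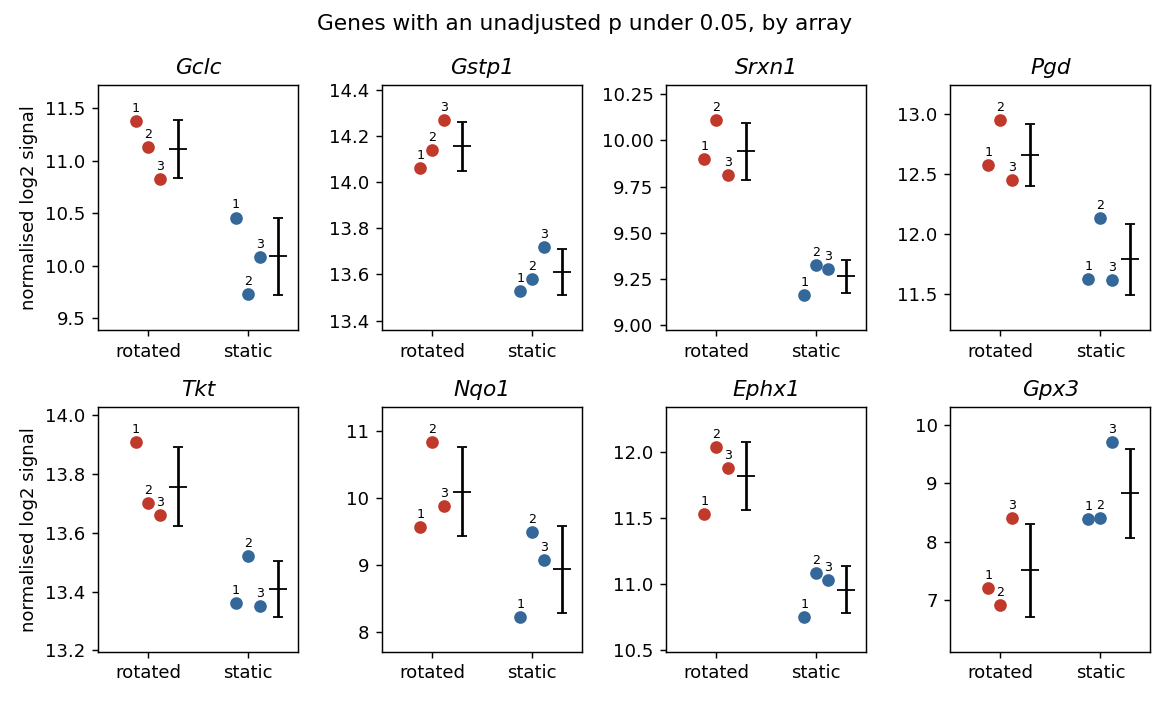
Points give the normalised log2 signal (y axis) of the 8 genes with an unadjusted limma p under 0.05, numbered by sample, and the bar to the right of each group gives its mean ± SD (n = 3). In 7 genes all rotated samples stand above all static samples; in Gpx3 the rotated samples stand lower, with rotated 3 at 8.41 level with static 1 and static 2.

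In the thioredoxin group all 3 genes with their own tested probe sets were higher in value by the brightest probe set of each. Srxn1, sulfiredoxin, which repairs over-oxidised peroxiredoxins, had normalised log2 signals of 9.90, 10.11 and 9.81 in the rotated samples, against 9.17, 9.33 and 9.30 in the static samples. The groups were separate, with a difference of 0.67 ± 0.22 (1.60-fold; unadjusted p 0.0114, adjusted p 0.593 in limma). The unadjusted p was 0.0537 without rotated 2. Of the 3 dimmer probe sets of Srxn1, those at 1.15 ± 0.66 and 1.07 ± 0.56 went the same way and the one at -0.12 ± 0.57 did not.

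Txnrd1, the cytosolic thioredoxin reductase, stood at 0.29 ± 0.24 by its brightest probe set. Both of its other probe sets were lower in value, the dimmest at -0.11 ± 0.53. The other one stood at -1.27 ± 0.76, where rotated 1 had 6.12 and the other 5 arrays 8.94 to 9.86. The actin ratio was also highest on rotated 1, and its part in this value was not tested. Txn1, thioredoxin itself, was close to the top of the signal range and stood at 0.25 ± 0.16, with 14.38 to 14.44 in the rotated samples and 13.92 to 14.41 in the static samples. The 5 probe sets shared by Prdx1, a peroxiredoxin, and Gm21399, an annotated pseudogene, differed by 0.11 to 0.45, each with an unadjusted p above 0.05, and cannot be assigned to either.

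By their brightest probe sets, the 4 tested genes grouped here under NADPH supply were all higher in value, with a median of 0.40. Not all of them make NADPH themselves. Pgd, 6-phosphogluconate dehydrogenase of the oxidative pentose phosphate pathway, had normalised log2 signals of 12.57, 12.95 and 12.45 in the rotated samples, against 11.62, 12.13 and 11.61 in the static samples. The groups did not overlap, and the difference was 0.87 ± 0.22 (1.83-fold; unadjusted p 0.0027, adjusted p 0.565 in limma). Of its 3 other probe sets, those at 0.84 ± 0.21 and 0.87 ± 0.27 were separate between groups too, while the fourth stood at -0.05 ± 0.30. The names of the 3 that differed mark them as holding probes that can match other transcripts, so whether the difference is of Pgd alone cannot be told apart here.

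Tkt, transketolase of the non-oxidative branch, had 13.91, 13.70 and 13.66 in the rotated samples, against 13.36, 13.52 and 13.35 in the static samples. The groups were separate and the difference small, 0.35 ± 0.15, with an unadjusted limma p of 0.0446 and an adjusted p of 0.606. Whichever sample was left out, the unadjusted p was above 0.05, between 0.0516 and 0.138. Its other 2 probe sets stood at 0.57 ± 0.37 and 0.04 ± 0.23, with means of 6.81 and 11.88. As for Pgd, the name of the brightest Tkt probe set marks it as holding probes that can match other transcripts. Whether its difference is of Tkt alone cannot be told apart here. Taldo1, transaldolase, stood at 0.45 ± 0.29, with the rotated range of 10.86 to 11.48 overlapping the static range of 10.30 to 11.27, and was 0.19 without static 1. Me1, cytosolic malic enzyme, stood at 0.05 ± 0.20, with its other probe set at -0.14 ± 0.26.

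In the detoxification and export group the 2 classical phase I and II enzymes had the largest values. Nqo1, the quinone reductase most often used as a readout of NRF2, had normalised log2 signals of 9.56, 10.84 and 9.88 in the rotated samples, against 8.23, 9.50 and 9.08 in the static samples. The groups were separate only by a narrow margin, since rotated 1 lay just above static 2. Nqo1 stood 2.23-fold higher (log2 difference 1.16 ± 0.41; 95% interval 0.25 to 2.07; unadjusted p 0.0182, adjusted p 0.593 in limma). Both groups spread widely, with SDs of 0.66 and 0.64. Within each replicate number the rotated sample was the higher one, and the unadjusted p was 0.000619 with the replicate block (adjusted p 0.162). The difference was 0.79 without rotated 2 (unadjusted p 0.0812) and 0.81 without static 1 (0.0754). In deposited signal, Nqo1 averaged 1160 in the rotated and 525 in the static samples.

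Ephx1, microsomal epoxide hydrolase, had 11.53, 12.04 and 11.88 in the rotated samples, against 10.75, 11.08 and 11.03 in the static samples. The lowest rotated value exceeded the highest static value clearly, and the difference was 0.87 ± 0.21 (1.82-fold; unadjusted p 0.0022, adjusted p 0.562 in limma), the smallest p of all members. It lay between 0.76 and 1.01 when each sample was left out. Abcc1, the exporter MRP1 of glutathione conjugates, stood at 0.40 ± 0.25, and at 0.61 without rotated 1. Its other probe set stood at -0.02 ± 0.36. Akr1b8, an aldo-keto reductase, stood at 0.07 ± 0.23. Osgin1, an NRF2-induced growth inhibitor in human cells, had a low mean signal of 7.14 and stood at -0.01 ± 0.41.

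**Figure D4:**
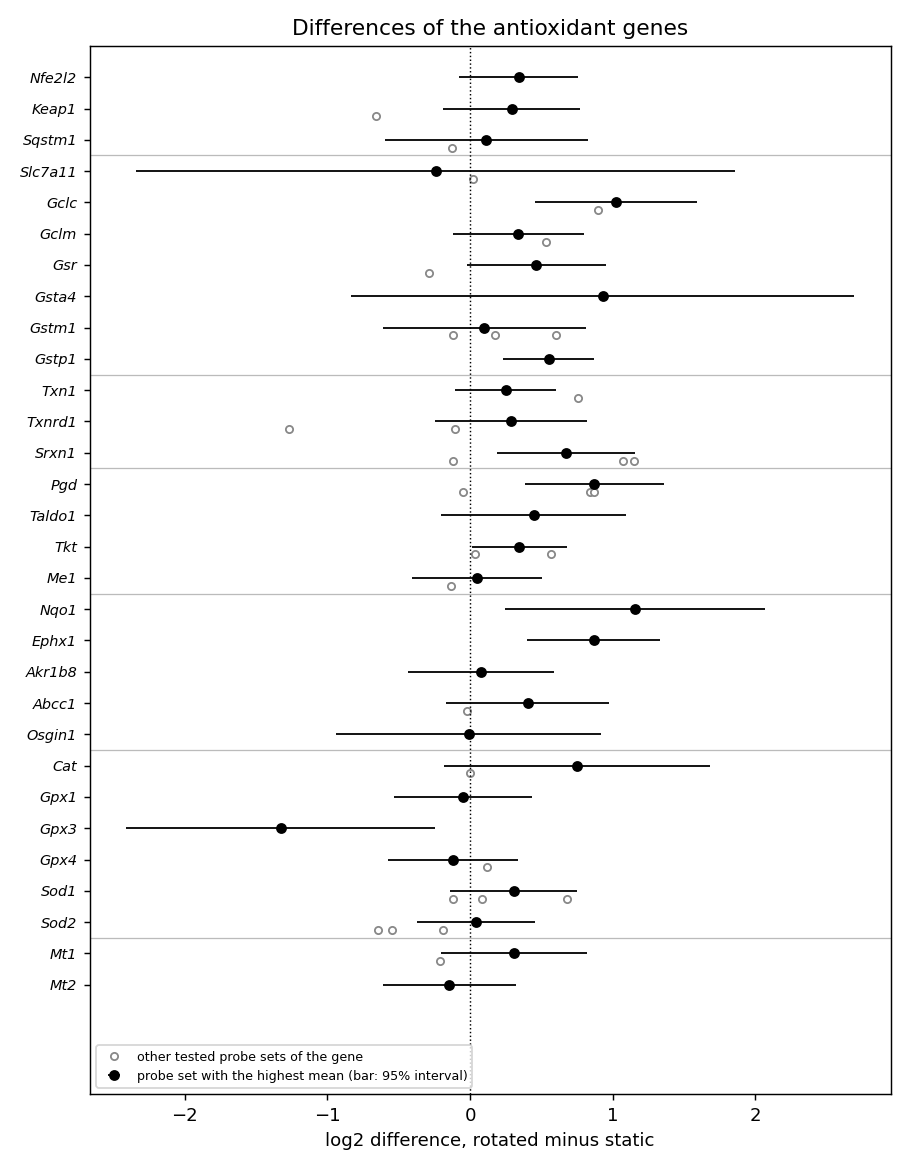
Filled points give the log2 difference (rotated minus static, x axis) of each of the 30 tested genes by its brightest probe set, with the 95% interval from limma, and open points the other tested probe sets of the same gene. Intervals of Gclc, Gstp1, Srxn1, Pgd, Tkt, Nqo1 and Ephx1 lie above 0 and that of Gpx3 below 0 before adjustment, and in 15 of 19 genes with more than 1 tested probe set, Pgd and Srxn1 among them, the probe sets differ in sign.

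The enzymes that remove superoxide and peroxides did not differ in 1 direction: 3 of 6 genes were higher and 3 lower in value, with a median of -0.0049. Gpx3, the secreted plasma form of glutathione peroxidase, had normalised log2 signals of 7.20, 6.91 and 8.41 in the rotated samples, against 8.38, 8.40 and 9.72 in the static samples. Rotated 3 was level with static 1 and static 2, so the groups overlapped. The difference was -1.33 ± 0.48 (2.51-fold lower; unadjusted p 0.0213, adjusted p 0.593 in limma), and with the replicate block the unadjusted p was 0.000541 and the adjusted p 0.152. In deposited signal Gpx3 averaged 186 in the rotated and 508 in the static samples. The difference was -0.89 without static 3 (unadjusted p 0.0933), -1.03 without rotated 2 (0.0825) and -1.18 without rotated 1 (0.067).

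Gpx1, the cytosolic peroxidase, and Gpx4, which reduces lipid hydroperoxides in membranes, stood at -0.05 ± 0.21 and -0.12 ± 0.20. Their 95% intervals, -0.53 to 0.43 and -0.57 to 0.34, do not show that these genes were unchanged. The other probe set of Gpx4 stood at 0.12 ± 0.18. Cat, catalase, stood at 0.75 ± 0.41, with 11.37, 11.90 and 10.26 in the rotated samples, against 9.94, 10.98 and 10.37 in the static samples. Rotated 3 lay within the static range, and the other probe set of Cat stood at -0.0032 ± 0.35.

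The cytosolic dismutase gene Sod1 stood at 0.31 ± 0.20, with its 3 other tested probe sets between -0.12 and 0.68. Sod2, the mitochondrial manganese dismutase, stood at 0.04 ± 0.18 by its brightest probe set. Its 3 dimmer probe sets were lower in value, at -0.55 ± 0.24, -0.65 ± 0.34 and -0.19 ± 0.22, so the direction of Sod2 depended on the probe set. Sod3, the extracellular dismutase, had group means of 5.65 in the rotated and 5.11 in the static samples on its brighter probe set, both below the threshold of 5.96, and was not tested.

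The metallothioneins were bright in both groups. Mt1 had normalised log2 signals of 13.95, 14.39 and 14.50 in the rotated samples, against 13.74, 13.72 and 14.43 in the static samples, a difference of 0.31 ± 0.23. The other Mt1 probe set, far dimmer with a mean of 7.39, stood at -0.21 ± 0.48. Mt2 had 14.10, 14.41 and 14.64 in the rotated samples, against 14.71, 14.13 and 14.74 in the static samples, a difference of -0.15 ± 0.21. The groups overlapped for both genes, and neither had an unadjusted limma p under 0.05 (0.206 and 0.498). The 95% intervals were -0.20 to 0.82 for Mt1 and -0.61 to 0.32 for Mt2. The sign of Mt2 was positive with median centring of the arrays (0.16) and with the values as deposited (0.019).

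Both metallothionein promoters carry metal response elements, the sites of MTF1, shown here because these genes answer to zinc and copper as well as to oxidants. The letters searched were a loose form of the core, TGCNCNC or, on the other strand, GNGNGCA. They were found 3 times in the promoter of Mt1 and 6 times in that of Mt2. Of all promoters, 7.1% held at least 3 matches. A match to these letters need not be a site of MTF1, and binding was not tested. Such short letters are common: 51.0% of all promoters and 52.8% of the member promoters held at least 1 match, and promoters of Srxn1, Gclm and Gstm1 also held 3. Of the matches upstream of the start, those nearest to it lie at chr8:94179056-94179082 in Mt1 and chr8:94172558-94172584 in Mt2 (GRCm38.p6, plus strand), 23 and 50 bases before the annotated start, with the core in capitals.
Mt1: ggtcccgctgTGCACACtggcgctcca
Mt2: gggggagggcGTGTGCAggctctgtcc

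A wider list of 96 other genes of these pathways was looked up for context, and 81 were tested. They did not share the direction of the members: 34 were higher and 47 lower in value, with a median of -0.13. With an unadjusted p under 0.05, 5 were higher and 8 lower, against 4.49% and 3.74% of all tested genes. After adjustment 0 passed (smallest adjusted limma p 0.565 by brightest probe sets). With the replicate block 7 were higher and 14 lower, against 8.22% and 6.75% of all genes. Over all 147 tested probe sets of this list, 10 were higher and 11 lower at the unadjusted level. The shares of all tested probe sets were 4.34% and 3.9%. The smallest adjusted limma p among the 147 was 0.491, for a probe set of Hagh at 1.31 ± 0.27. The brightest Hagh probe set stood at 0.25 ± 0.21.

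Among the higher ones were Aldh3a1, an aldehyde dehydrogenase, at 1.52 ± 0.41, the exporter gene Abcc4 at 1.00 ± 0.26, the microsomal transferase genes Mgst2 and Mgst1 at 1.11 ± 0.47 and 0.74 ± 0.30, and Bach1, a repressor of antioxidant response elements, at 0.47 ± 0.19 with its other probe set at -0.20. Lower in value were Mgst3 (-1.30 ± 0.52), the transferase gene Gstt1 (-0.82 ± 0.24) and Txnip, the thioredoxin-binding protein gene, at -1.21 ± 0.45 with a second probe set at -2.43 ± 0.77. For Mgst3, rotated 1 had 7.52 and the other arrays 9.28 to 10.55. On the second Txnip probe set, rotated 1 had 6.78 and the other arrays 8.98 to 11.84. Prdx4, a peroxiredoxin of the endoplasmic reticulum, stood at -0.63 ± 0.16 with no overlap between groups, at 12.90, 13.24 and 13.06 in the rotated samples against 13.77, 13.67 and 13.64 in the static samples. Of its 3 other probe sets 1 stood higher at 0.33 ± 0.58. The thioredoxin-like Nxn stood at -0.65 ± 0.22, mitochondrial Idh2 at -0.66 ± 0.27 with its other probe set at 0.33, the selenium carrier gene Selenop at -0.57 ± 0.20 and Gpx8, another peroxidase of the endoplasmic reticulum, at -0.53 ± 0.22. Hmox1, heme oxygenase 1 and a widely used NRF2 target, differed by 0.31 ± 0.49.

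**Figure D5:**
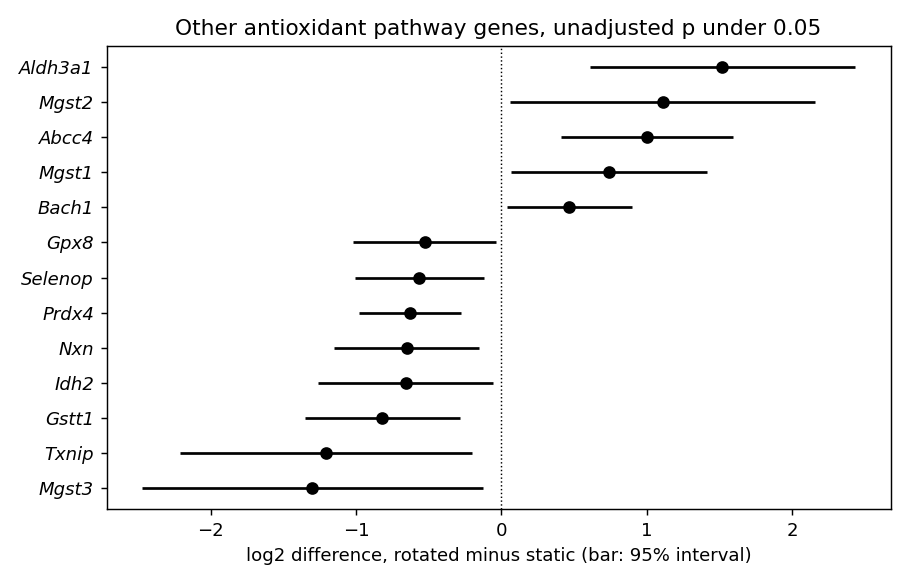
Points give the log2 difference (rotated minus static, x axis) and bars the 95% interval from limma for the 13 genes of the wider list with an unadjusted p under 0.05, of 81 tested. Of these, 5 lie above 0, with Aldh3a1 at 1.52, and 8 below, with Mgst3 at -1.30.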

How the data were processed

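The deposited table holds 1 linear intensity per probe set and array. No source used here names the software, but the mean after trimming 2% at each end is 500.0 on every array, so the deposited intensities had been scaled to 1 target. Detection calls were not used. Here log2(intensity + 16.6) was taken, the 20th percentile being the offset, which understates differences of dim probe sets. Array medians differed by 85.9%, and quantile normalization followed. The 64 control probe sets and those with a mean below the 40th percentile were dropped. Names came from the platform annotation (34945 probe sets with 1 symbol, 932 with several, 9160 unnamed here), checked through gene identifiers against RefSeq GRCm38.p6.

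Differences were fitted by limma 3.58.1 under R 4.3.3 (rotated minus static, linear model, eBayes with trend, two-sided), with Benjamini-Hochberg adjustment over 27022 probe sets at 0.05. The step was tested on simulated data. Members and lists were chosen with earlier results of these data known. Every member was accounted for. Values of all arrays are printed for members with an unadjusted p under 0.05 or groups that do not overlap. They are printed in any case for Nfe2l2, Keap1, Nqo1, Gclm, Mt1 and Mt2. Genes of the wider list are named where the brightest probe set had an unadjusted p under 0.05. Cat, Gsta4, Slc7a11, Prdx4, Hmox1 and a few more were described in detail after their values were seen.

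Deviations from the group means correlated at 0.196, 0.313 and 0.334 for the same replicate numbers and at -0.186 to -0.0941 for different ones, so the numbers may pair the samples. The labels do not say what they stand for. The alternatives were the deposited scaling, median centring, other offsets and filters, the replicate block, array weights, gene means and leaving out each sample. After seeing the data, 2 fits were added, one lacking both samples numbered 1 and one adjusting for the actin ratio.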

Additional observations from a re-analysis of the deposited data

How the results depend on the processing

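After adjustment 0 members and 0 genes of the wider list passed under every alternative run. Over all probe sets 0 passed in the reported fit (2227 at an unadjusted p under 0.05), 2 with the replicate block and 22 with array weights. The unadjusted count was 1352 with median centring, 3955 with the replicate block, 5139 with array weights, 701 with the actin covariate and 1092 to 3364 without single samples, the lowest without rotated 1 and the highest without rotated 3. The 7 member genes with a higher value were 12 with the block, 11 with array weights and 4 to 8 without single samples. The 1 with a lower value, Gpx3, was 0 with the actin covariate, 0 with both samples numbered 1 left out and 0 to 1 without single samples. In the wider list the 5 higher were 3 with median centring, 3 with the actin covariate, 9 with array weights and 3 to 4 without single samples. The 8 lower were 1 with median centring, 2 with the actin covariate, 5 with both samples numbered 1 left out, 14 with the block and 4 to 10 without single samples.

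The member median of 0.31 was 0.55 with median centring, 0.44 with the actin covariate, 0.19 when the probe sets of each gene were averaged and 0.22 to 0.37 without single samples. Median centring also moved the median of all tested probe sets to 0.10, and the members lay 0.44 above it.

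The sign turned in at least 1 alternative for 12 genes, none of them with an unadjusted p under 0.05 in the reported fit, and in none for the other 18. With the mean over probe sets it did for Keap1 (-0.18), Sqstm1 (-0.0049), Txnrd1 (-0.36), Me1 (-0.043), Gpx4 (0.00058) and Sod2 (-0.33). With array weights it did for Sqstm1 (-0.19), Akr1b8 (-0.039), Osgin1 (0.041), Gpx1 (0.049), Gpx4 (0.030) and Sod2 (-0.10). With both samples numbered 1 left out it did for Osgin1 (0.010), Gpx1 (0.058), Gpx4 (0.12) and Mt2 (0.088). With the actin covariate it did for Osgin1 (0.51), Gpx1 (0.26), Gpx4 (0.23), Sod2 (-0.079) and Mt2 (0.056). Median centring turned Gpx1 (0.12), Gpx4 (0.14) and Mt2 (0.16), and the deposited values turned Mt2 (0.019). Without single samples the differences ran from -0.25 to 0.32 for Sqstm1, -1.16 to 0.76 for Slc7a11, -0.18 to 0.37 for Gstm1, -0.10 to 0.19 for Me1, -0.073 to 0.24 for Akr1b8, -0.32 to 0.31 for Osgin1, -0.17 to 0.15 for Gpx1, -0.25 to 0.11 for Gpx4 and -0.13 to 0.14 for Sod2. The cause of these moves was not tested. The number of arrays, 3 a group, limits the precision.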
